A study of Mus musculus with 10 samples.

Results

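Splenic germinal center B cells of mice labelled Pbrm1-/- (HOMO) were compared with those of mice labelled Pbrm1+/+ (WT) within the fraction labelled CB. The comparison took the 2 HOMO CB and 3 WT CB libraries out of 10 RNA-seq libraries in all, chosen by the genotype and fraction in the column names of the deposited count table. Of 55421 genes in that table, 16596 passed the count filter and were tested. All mice were C57BL/6, 8 to 10 weeks old, and were immunized 10 days before the spleen was taken, and germinal center B cells were enriched with magnetic beads for PNA, a lectin that binds them. The other 5 libraries are the CC fractions of the same genotypes, and they entered the fit only to share its estimate of the spread and to test whether the genotype difference was the same in both fractions. The labels do not spell out CB or CC, how the fractions were separated, how the Pbrm1 allele was made, in which cells it acts, or whether animals were pooled. The column names carry the letters AID beside the gene name, which the labels do not explain. HOMO columns carry the numbers 2 and 3, whereas HOMO titles carry 1 and 2, so the column number serves only as a name. No label ties a library to its own animal, so p-values speak to the spread among libraries, and some of that spread may be technical.

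Pbrm1 encodes BAF180, a protein with several bromodomains that bind acetylated histones. It belongs to PBAF, a SWI/SNF complex that remodels chromatin and that also holds the products of Arid2, Brd7 and Phf10, and Smarca4 encodes the ATPase that slides or evicts nucleosomes. In the germinal center, B cells alternate between a dark zone, where they divide and mutate their antibody genes, and a light zone, where they are selected through the B cell receptor and T cell help. Genes of division, immediate early signalling, NF-kB and MYC mark steps of this cycle.

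The 5 CB libraries did not fall apart by genotype alone. Depth ran from 26372234 counts (WT library 1) to 67625110 counts (HOMO library 3), and WT library 3 had 61627968. Levels are given as CPM, read counts scaled to a common library size by TMM, a method that sets the bulk of genes equal between libraries. Over 8761 well-covered genes (mean log2 CPM at or above 3), the median absolute log2 difference between WT libraries 1 and 2 was 0.0781 and that between the HOMO libraries 0.0654. WT library 3 differed from WT libraries 1 and 2 by 0.230 and 0.275, and from HOMO libraries 2 and 3 by 0.143 and 0.126. It thus lay nearer to both HOMO libraries than to the other WT libraries. The deviation of each library from the mean of a gene ran with GC content, with a Spearman rho across 8758 genes, which are not independent replicates, of 0.598 and 0.611 in WT libraries 1 and 2, -0.226 in WT library 3, and -0.635 and -0.618 in the HOMO libraries. In the lowest decile of GC content the HOMO mean was above that of WT libraries 1 and 2 by a median of 0.356 (log2), and in the highest decile it was at -0.381. Against WT library 3 the same medians were 0.163 and -0.0532.

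**Figure D1:**
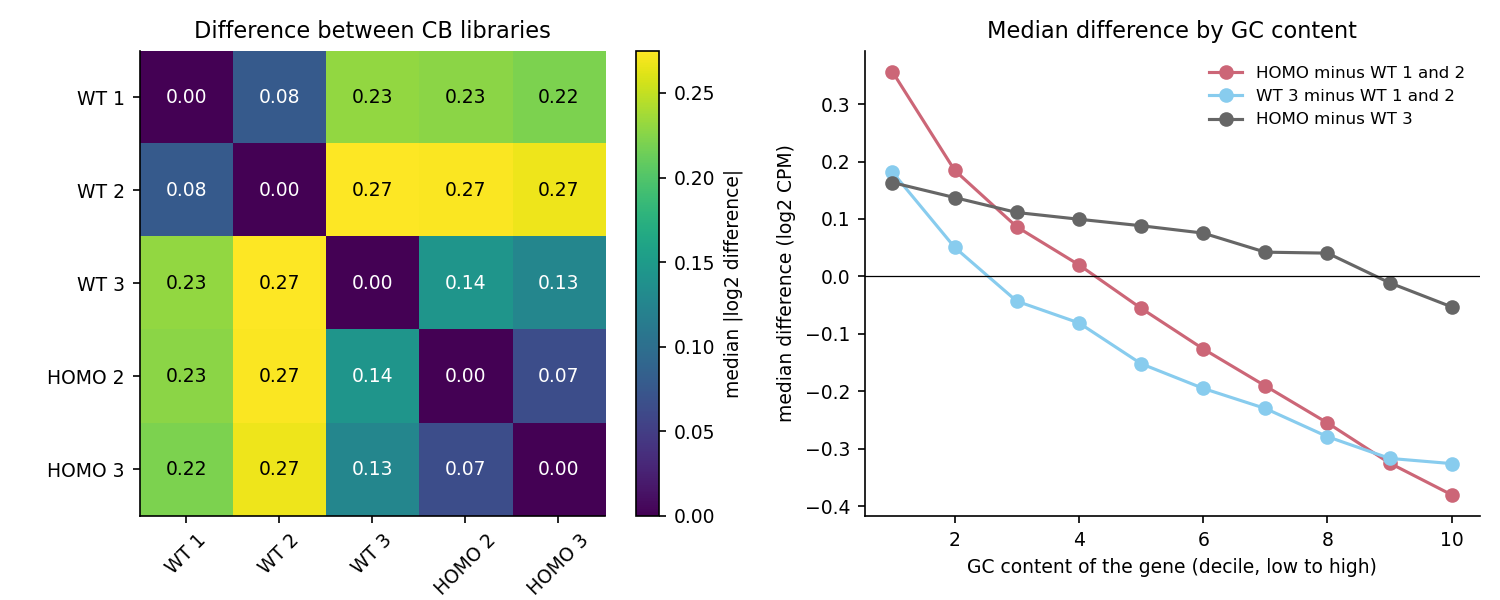
Left, median absolute log2 difference between each pair of CB libraries over 8761 genes, with WT library 3 between 0.126 and 0.143 from the HOMO libraries and at least 0.230 from the other WT libraries. Right, median log2 difference of genes in each decile of GC content, for 3 pairs of library sets: the difference of HOMO from WT libraries 1 and 2 runs from 0.356 to -0.381 and that from WT library 3 from 0.163 to -0.0532.

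Some other properties split the libraries in the same way, and others did so only in part. Xist, the RNA that coats an inactive X chromosome, had 467.2, 72.5 and 2668 CPM in the WT libraries in order of number, against 2022 and 2884 CPM in HOMO. The Y-linked gene Ddx3y was at 79.6, 103.5 and 40.1 CPM in WT and at 51.1 and 38.4 CPM in HOMO. WT library 3 was with the HOMO libraries in both genes, and every CB library held transcripts of both. Other Y-linked genes did not group it with both HOMO libraries. Kdm5d was at 57.9, 79.4 and 26.0 CPM in WT and 51.2 and 31.7 CPM in HOMO. Eif2s3y was at 56.85, 77.1 and 25.7 CPM against 47.5 and 31.0 CPM. In these, HOMO library 2 was nearer to WT library 1. Uty, at 35.1, 35.6 and 25.7 CPM against 39.4 and 25.9 CPM, was highest in HOMO library 2. The sum over 13 genes of the mitochondrial genome was 19910, 18500 and 12610 CPM in WT, against 12740 and 11640 CPM in HOMO. For neutrophil genes the sum was 1.77, 0.275 and 20.2 CPM in WT, against 194.9 and 11.7 CPM in HOMO, so HOMO library 2 was the highest. The part of these differences in the results was not tested. Where WT library 3 bears on a result, the value is given against all 3 WT libraries, against WT libraries 1 and 2, and against WT library 3. The second of these fits left out WT library 3 of both fractions, and the third left out WT libraries 1 and 2 of both, so that 1 WT CB library was assumed to vary like the other groups.

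With all 3 WT libraries, 4 of 16596 genes (0.0241%) passed at an adjusted p of 0.05 (edgeR quasi-likelihood test, Benjamini-Hochberg), 1 higher (0.00603%) and 3 lower (0.0181%) in HOMO. They were the targeted gene Pbrm1, Myo7a and Ptpre, which fell, and Gatm, which rose. At an unadjusted p of 0.05 there were 2079 genes (12.5%), 1051 higher (6.33%) and 1028 lower (6.19%). In 5839 genes (35.2%) the HOMO and WT libraries did not overlap. A lack of overlap in genes named for a small p therefore adds little. Genes passed far more often without WT library 3 of both fractions (4893 genes, 29.5%) and more often against WT library 3 (578 genes, 3.48%), and DESeq2 called 277 genes (1.67%) on all libraries, 137 higher (0.826%) and 140 lower (0.844%). Without the CB library alone of WT number 3 there were 1956 genes (11.8%), 1041 higher (6.27%) and 915 lower (5.51%). Limma-voom called 7 genes (0.0422%), 3 higher (0.0181%) and 4 lower (0.0241%), and 16 (0.0964%), 7 higher (0.0422%) and 9 lower (0.0542%), with WT numbers as a block. With no filter on low counts edgeR called 590 of 29279 genes (2.02%), 344 higher (1.17%) and 246 lower (0.84%). In that fit Xist, which varied widely among WT libraries, had an SE of 0.138 (edgeR adjusted p = 2.96e-14), against 1.57 (0.783) with the filter. The SEs there followed the spread of single genes less, which limits these calls.

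Pbrm1 (ENSMUSG00000042323.17, mm10 chromosome 14, 31019138 to 31121592) was at 319, 308.7 and 312.1 CPM in WT libraries 1, 2 and 3 and at 177.8 and 163.9 CPM in HOMO libraries 2 and 3. The 3 WT libraries lay close together, WT library 3 with the others, and both HOMO libraries were below all of them. The means were 313 ± 5.23 CPM (SD, n = 3) and 171 ± 9.83 CPM (SD, n = 2), so the difference was -0.88 on the log2 scale (SE 0.087, edgeR adjusted p = 0.00954). HOMO thus kept 0.545 of the WT level. The log2 change was -0.85 against WT libraries 1 and 2 (edgeR adjusted p = 2.07e-06) and -0.89 against WT library 3 (2.57e-05). Counts cover the whole gene, so RNA from an allele that lost a few exons would still add to them, and these levels do not show whether the protein was lost. In bulk samples, fewer cells that express a gene and less RNA per cell cannot be told apart.

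Myo7a, which encodes an unconventional myosin motor known from the sensory hair cells of the inner ear, was at 19.3, 21.95 and 16.5 CPM in WT and at 7.98 and 6.90 CPM in HOMO. Both HOMO libraries lay below every WT library. The means were 19.3 ± 2.73 CPM (SD, n = 3) and 7.44 ± 0.764 CPM (SD, n = 2), and Myo7a fell by 1.37 on the log2 scale (SE 0.157, edgeR adjusted p = 0.0192). It was at -1.46 against WT libraries 1 and 2 and at -1.17 against WT library 3 (edgeR adjusted p = 5.35e-06 and 0.00174).

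Ptpre encodes a receptor-type protein tyrosine phosphatase, of which a cytosolic form is also made. Its levels were 10.1, 11.03 and 9.42 CPM in WT and 4.43 and 3.12 CPM in HOMO, and the groups did not overlap. It fell by 1.45 on the log2 scale (SE 0.186, edgeR adjusted p = 0.0306). It was at -1.49 against WT libraries 1 and 2 and -1.36 against WT library 3 (edgeR adjusted p = 6.82e-05 and 0.00636).

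Gatm encodes the mitochondrial amidinotransferase of the first step of creatine synthesis. It was at 38.3, 44.9 and 43.2 CPM in WT and at 84.5 and 76.7 CPM in HOMO, with both HOMO libraries above all WT libraries. The means were 42.1 ± 3.44 CPM (SD, n = 3) and 80.6 ± 5.51 CPM (SD, n = 2). Gatm rose 1.91-fold, or by 0.94 on the log2 scale (SE 0.117, edgeR adjusted p = 0.0306). It was at 0.98 against WT libraries 1 and 2 and at 0.88 against WT library 3 (edgeR adjusted p = 1.63e-05 and 0.000327). GC content was 41.8% over Pbrm1, 43.2% over Gatm, 50.3% over Ptpre and 56.3% over Myo7a.

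**Figure D2:**
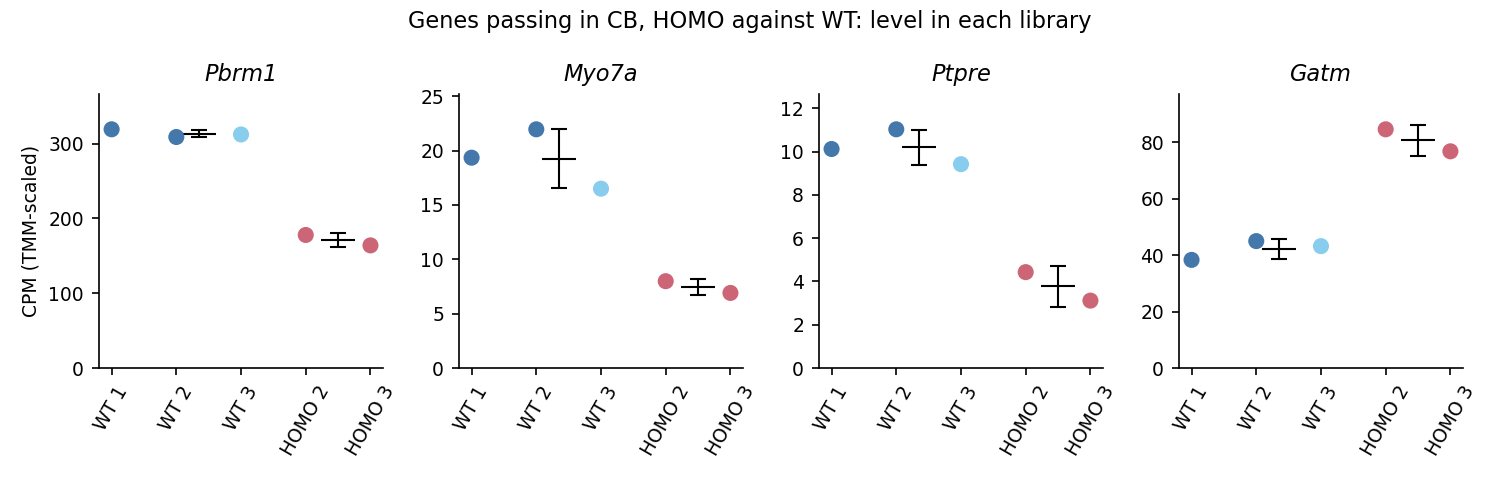
CPM after TMM scaling of the 4 genes that passed, in each WT and HOMO CB library, with group means and SDs as black bars (n = 3 and 2). WT library 3 (light blue) lies with WT libraries 1 and 2 in each panel, and the HOMO libraries are apart from all 3. A choice by p over all 3 WT libraries favours this.

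No 1 of the 4 passed in every fit that left out a CB library. The largest edgeR adjusted p over those 5 fits was 0.467 for Pbrm1, 0.535 for Gatm, 0.749 for Myo7a and 0.848 for Ptpre. Over all 22 alternatives Pbrm1 passed in 16, Gatm and Myo7a in 14 and Ptpre in 13.

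The promoter windows of these genes are printed because PBAF acts on nucleosomes at regulatory DNA and these are the genes that passed. Each window runs from 250 bases before to 50 bases after the most upstream start that RefSeq lists for the gene (GRCm38.p6), written 5′ to 3′ on the strand of the gene. Capitals mark matches to GGGCGG, read on the opposite strand as CCGCCC, and to CCAAT, read on the opposite strand as ATTGG, letters known as the Sp1 box and the CCAAT box.
Pbrm1: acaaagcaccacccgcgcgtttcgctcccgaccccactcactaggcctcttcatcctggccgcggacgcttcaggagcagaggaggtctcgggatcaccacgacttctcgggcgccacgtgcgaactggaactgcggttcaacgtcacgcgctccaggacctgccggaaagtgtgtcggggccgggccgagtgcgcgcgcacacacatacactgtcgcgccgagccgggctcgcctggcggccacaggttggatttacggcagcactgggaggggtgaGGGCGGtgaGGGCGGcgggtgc
Myo7a: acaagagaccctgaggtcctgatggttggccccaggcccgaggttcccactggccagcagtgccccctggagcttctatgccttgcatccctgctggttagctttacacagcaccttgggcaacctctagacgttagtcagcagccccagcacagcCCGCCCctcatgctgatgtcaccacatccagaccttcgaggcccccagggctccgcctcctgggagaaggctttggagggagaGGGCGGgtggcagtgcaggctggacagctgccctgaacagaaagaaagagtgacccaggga
Ptpre: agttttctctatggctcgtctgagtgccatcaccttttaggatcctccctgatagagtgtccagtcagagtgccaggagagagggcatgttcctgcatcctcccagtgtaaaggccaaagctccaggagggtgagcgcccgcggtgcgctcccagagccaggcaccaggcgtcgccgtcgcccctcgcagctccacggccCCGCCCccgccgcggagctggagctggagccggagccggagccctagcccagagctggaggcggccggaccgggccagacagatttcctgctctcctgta
Gatm: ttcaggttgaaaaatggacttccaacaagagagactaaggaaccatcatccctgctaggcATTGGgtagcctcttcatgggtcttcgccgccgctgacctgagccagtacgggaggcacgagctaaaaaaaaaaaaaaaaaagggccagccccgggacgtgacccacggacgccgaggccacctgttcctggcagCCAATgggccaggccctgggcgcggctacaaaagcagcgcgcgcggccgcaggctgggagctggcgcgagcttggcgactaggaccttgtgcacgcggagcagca
The windows are chr14:31018888-31019187 (plus strand) for Pbrm1, chr7:98119444-98119743 (minus) for Myo7a, chr7:135537574-135537873 (plus) for Ptpre and chr2:122611228-122611527 (minus) for Gatm. RefSeq lists 1 window for Pbrm1 and Gatm, 2 for Myo7a and 3 for Ptpre. The number of CG dinucleotides was 35, 6, 20 and 22 in that order of genes, against a median of 7 over 32851 windows of the same length. GGGCGG was found 2 times in Pbrm1, 2 times in Myo7a, 1 time in Ptpre and 0 times in Gatm, and 35.7% of all windows hold it. CCAAT was found 2 times in Gatm and 0 times in the other three, and 37.4% of all windows hold it. Such matches describe letters and not binding, and the 3 genes that fell do not share a CG count.

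The 11 genes that came next in order of p, by the same rules on level and symbol, were named after their values were seen. None passed in edgeR with all WT libraries (adjusted p from 0.0754 to 0.111), 6 were lower and 5 higher, and in all 11 the groups did not overlap (35.2% of all genes). On the same libraries all 11 passed in DESeq2 (1.67% of all genes) and 8 in limma-voom with the WT number as a block (0.0964%), namely Bmpr1a, Colq, Ptpn9, Wdfy4, As3mt, Frat2, Fgd2 and Alg6 (adjusted p from 0.0216 to 0.0426). In edgeR 0 of them passed with the GC content offset. Without WT library 3 each of the 11 passed in edgeR, in a fit that shares the HOMO libraries. The 11 were chosen by p over all 3 WT libraries, so passing in other fits of the same libraries is no separate support. Colq, which encodes the collagen tail that anchors acetylcholinesterase, was at 7.45, 6.12 and 5.11 CPM in WT and 1.35 and 1.02 CPM in HOMO (log2 -2.40, SE 0.354). Bmpr1a, a type I receptor of bone morphogenetic proteins, was at 18.9, 14.6 and 13.2 CPM in WT and 5.71 and 3.29 CPM in HOMO (log2 -1.80, SE 0.302). Both HOMO libraries were far under the lowest WT library in these 2 genes, which was WT library 3.

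Fgd2, an exchange factor for the GTPase Cdc42, was at 33.1, 35.6 and 30.1 CPM in WT and 17.6 and 19.9 CPM in HOMO (log2 -0.81, SE 0.119). The remaining lower genes were As3mt, an arsenic methyltransferase (log2 -1.15), Frat2, which binds the kinase GSK3 (-1.19), and the X-linked gene Armcx2 (-1.25). Among the higher genes, Wdfy4, known for its role in cross-presentation by dendritic cells, was at 697, 661 and 844 CPM in WT and 1168 and 1167 CPM in HOMO (log2 0.67, SE 0.112). WT library 3 was here the highest of the WT libraries and still below both HOMO libraries. Alg6, a glucosyltransferase that builds the N-glycan precursor, was at 12.2, 12.02 and 14.6 CPM in WT and 24.7 and 22.4 CPM in HOMO (log2 0.86). Lrrc32, which presents latent TGF-beta on the cell surface, was at 21.1, 21.02 and 21.9 CPM against 33.2 and 31.2 CPM (log2 0.59). The log2 change was 0.84 for Ptpn9, a tyrosine phosphatase gene, and 0.79 for the zinc finger gene Zfp950.

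Of these 11 genes 3 lie within 5 Mb of Pbrm1 on chromosome 14: Colq (31523082 to 31591343), Wdfy4 (32959547 to 33185508) and Bmpr1a (34410734 to 34503341). That interval holds 231 genes, of which 71 were tested (out of 16596 in all), 1 passed (Pbrm1), and 12 reached an unadjusted p of 0.05 (16.9%, against 12.5% of all genes), 5 higher and 7 lower. DESeq2 called 2 of the 71 higher and 5 lower (0.826% and 0.844% of all genes). Limma-voom with the block called 1 higher and 3 lower (0.0422% and 0.0542% of all genes). Pbrm1 was among the lower genes in both. Against WT libraries 1 and 2, 11 passed as higher and 11 as lower (background 14.7% and 14.8%). Linkage of strain differences to the targeted allele was not tested.

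The choice of WT libraries set most other results, as the plot of both changes per gene shows. Of 1783 genes whose HOMO mean differed from the mean of WT libraries 1 and 2 by over 1 (log2, a fold of 2), WT library 3 was nearer to HOMO in 1417 (79.5%, against 65.5% of all genes tested), and its median position was 0.936 on a scale from 0 at WT libraries 1 and 2 to 1 at HOMO. Rpl41, a ribosomal protein gene, was at 408, 433 and 212 CPM in WT and 196 and 209 CPM in HOMO. It was at a log2 change of -1.03 against WT libraries 1 and 2 (edgeR adjusted p = 2.21e-06), -0.08 against WT library 3 (0.651) and -0.79 against all (0.372). Zbtb20, a zinc finger gene of the plasma cell list, was at 524, 438 and 895 CPM in WT and 981 and 994 CPM in HOMO, with log2 changes of 1.06 (edgeR adjusted p = 4.31e-06), 0.13 (0.23) and 0.67 (0.325) in the same order. In both genes WT library 3 stood with the HOMO libraries.

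**Figure D3:**
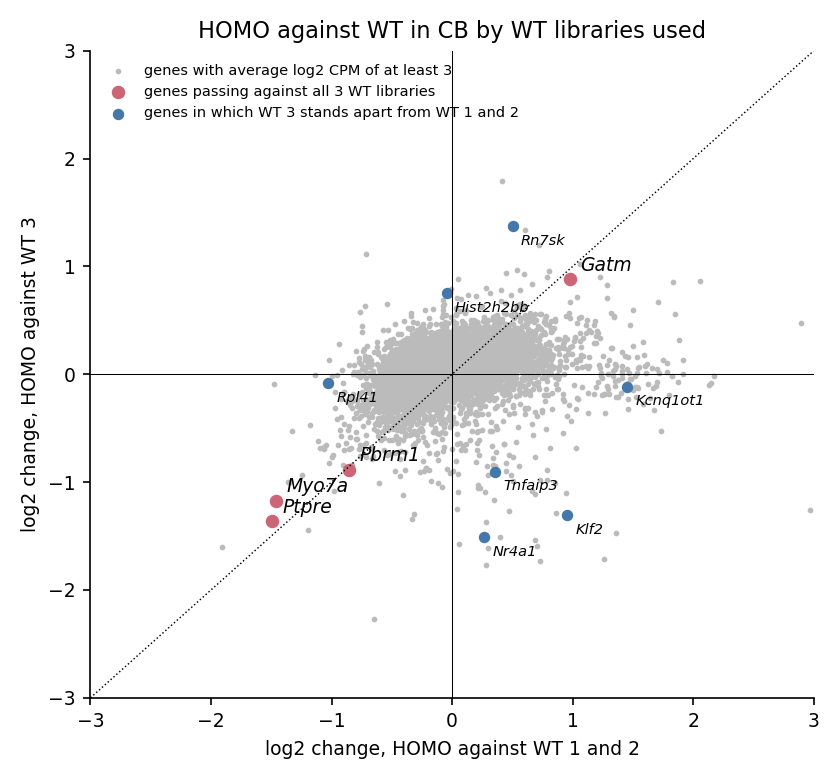
Log2 change of each well-covered gene (mean log2 CPM at or above 3) against WT libraries 1 and 2 (x axis) and against WT library 3 (y axis), which share the 2 HOMO libraries. The 4 genes that passed lie near the dotted line of equal change, which their choice by p over all 3 WT libraries favours. Kcnq1ot1 and Rpl41 lie near 0 on the y axis (-0.11 and -0.08), and Klf2, Nr4a1 and Tnfaip3 are above 0 on the x axis and below it on the y axis. Of the grey points 3 lie outside the axes, which end at 3 in each direction.

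The 25 process lists were next described by the number of members that passed and by their median log2 change, beside -0.04 over all genes tested. A member is said to pass in edgeR with all WT libraries unless another fit is named. In 24 lists no member passed, and in the last 1 member did, Pbrm1. DESeq2 on the same libraries called members in 12 of the 24 (1.67% of all genes, 0.826% higher and 0.844% lower), limma-voom with the block in 1 of them, and edgeR with the GC content offset in 0. The shares of all genes to be set beside counts of members are 6.33% higher and 6.19% lower at an unadjusted p of 0.05, 14.7% and 14.8% passing against WT libraries 1 and 2, and 1.86% and 1.63% passing against WT library 3. Of 45 list genes chosen by the naming rule, other than Pbrm1, 18 were over 1.5 times nearer to 0 with the GC content offset, 1 was over 1.5 times farther, and 4 changed sign. In 20 of 25 lists the median had opposite signs against WT libraries 1 and 2 and against WT library 3.

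Immediate early genes, which answer receptor signals within minutes, were set apart by WT library 3. It was the highest of the 5 libraries in 26 of 29 genes (89.7%, against 21.5% of all genes). Their summed level was 1908, 1901 and 2762 CPM in WT and 1956 and 2026 CPM in HOMO. The nuclear receptor gene Nr4a1 was at 11.1, 12.2 and 38.9 CPM in WT and 13.9 and 13.7 CPM in HOMO. Klf2, a transcription factor gene of resting and recirculating lymphocytes, was at 7.05, 5.19 and 28.4 CPM in WT and 11.8 and 11.5 CPM in HOMO. In both genes WT library 3 was above all others, and the HOMO libraries were above WT libraries 1 and 2. No member passed in edgeR, and 1 did in DESeq2, Egr1 (adjusted p = 0.00138). In edgeR 5 reached an unadjusted p of 0.05, all lower, and the median was -0.34. Against WT libraries 1 and 2 it was 0.15, with 7 members higher and 4 lower (background 14.7% and 14.8% of all genes), and against WT library 3 it was -0.99, with 0 higher and 16 lower (background 1.86% and 1.63%).

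Egr1 and Dusp2, the members with the smallest p, did not depend on that library in the same way, which a choice by p over all 3 WT libraries favours. Egr1, a zinc finger transcription factor gene, was at 41.1, 49.6 and 45.8 CPM in WT and 25.0 and 29.0 CPM in HOMO, with no overlap. Its log2 change was -0.75 (edgeR adjusted p = 0.167), -0.72 against WT libraries 1 and 2 (0.00481) and -0.77 against WT library 3 (0.00105). Dusp2, a phosphatase gene that acts on MAP kinases, was at 129, 129 and 137 CPM in WT and 101 and 108 CPM in HOMO (log2 -0.34, edgeR adjusted p = 0.289). Egr1 was at -0.52 and Dusp2 at -0.064 with the GC content offset. Tnfaip3, an inhibitor of NF-kB signalling, again had WT library 3 alone, at 49.8, 56.1 and 123 CPM in WT and 63.5 and 69.4 CPM in HOMO.

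**Figure D4:**
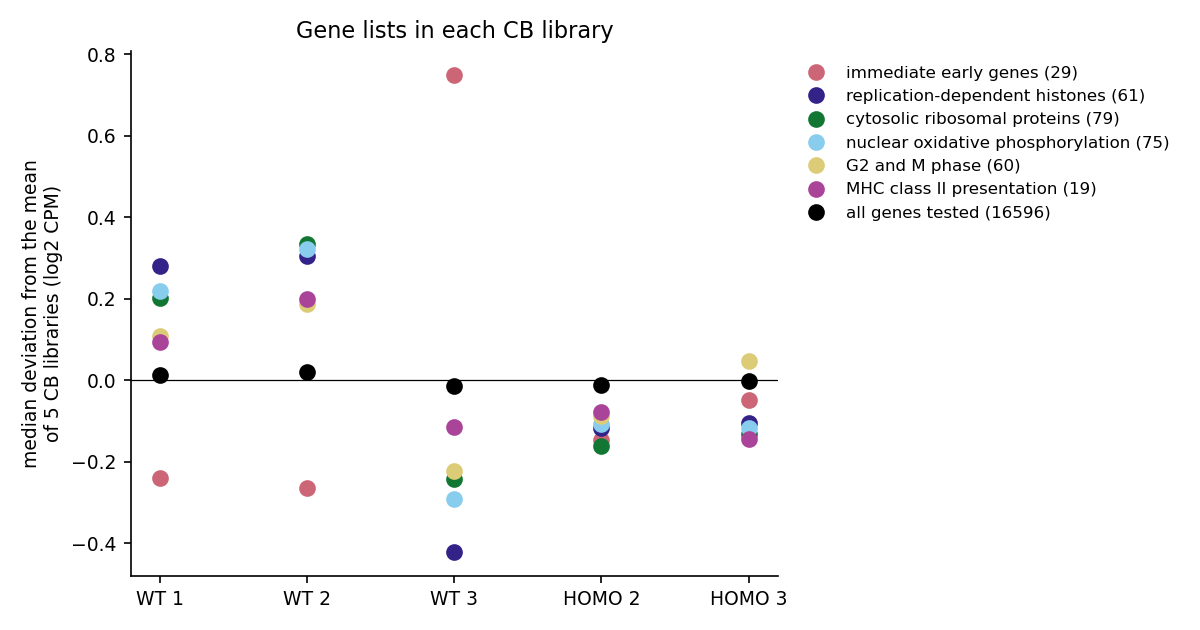
Median deviation of the members of 6 lists, and of all 16596 genes, from their mean over the 5 CB libraries (log2 CPM), 1 point per list and library, with the number of members in brackets. Immediate early genes are highest and replication-dependent histone genes lowest in WT library 3, and the medians of both HOMO libraries lie between those of WT library 3 and WT libraries 1 and 2 in these 2 lists.

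Replication-dependent histone genes, whose RNA is made in S phase and mostly lacks a poly(A) tail, summed to 13920, 14410 and 8150 CPM in WT and to 10190 and 10340 CPM in HOMO. WT library 3 was the lowest library in 53 of 61 genes (86.9%, against 26.3% of all genes). In the sums HOMO lay between WT library 3 and the other WT libraries. No member passed in edgeR or DESeq2 (2 at an unadjusted p of 0.05 in edgeR, both lower), with a median of -0.24. Against WT libraries 1 and 2 the median was -0.41 with 0 members higher and 30 lower, and against WT library 3 it was 0.30 with 26 higher and 0 lower (background 14.7% and 14.8%, and 1.86% and 1.63%). With the GC content offset the median was 0.0043 with all WT libraries, and -0.12 against WT libraries 1 and 2, with 8 higher and 10 lower. In the latter fit 1688 of all 16596 genes were higher and 949 lower, with a median of 0.053. The linker histone gene Hist1h1d was at 813, 828 and 465 CPM in WT and 490 and 495 CPM in HOMO. Hist2h2bb, in contrast, was at 198, 212 and 115 CPM in WT and 194 and 197 CPM in HOMO, so that HOMO lay just below WT libraries 1 and 2 there. Many histone genes have near-identical copies that can share reads.

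Genes of cytosolic ribosomal proteins summed to 28620, 31490 and 21270 CPM in WT and to 22490 and 22930 CPM in HOMO. The level was lowest in WT library 3 and next lowest in HOMO. Of 79 genes 0 passed in edgeR or DESeq2, 14 reached an unadjusted p of 0.05 in edgeR, all lower (17.7%, against 6.19% of all genes), and the median was -0.27. It was -0.41 with 0 members higher and 63 lower against WT libraries 1 and 2 (background 14.7% and 14.8%), and 0.08 with 4 higher and 0 lower against WT library 3 (background 1.86% and 1.63%). With the GC content offset it was -0.15. Rps2 was at 565, 612 and 394 CPM in WT and 375 and 401 CPM in HOMO (log2 -0.43), and Rpl24 at 4.84, 4.47 and 4.001 CPM against 2.49 and 2.57 CPM (log2 -0.81, edgeR adjusted p = 0.311). Pseudogenes close to these genes can share their reads.

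Nuclear genes of oxidative phosphorylation had the same order of libraries, with sums of 5674, 6025 and 4071 CPM in WT and 4581 and 4579 CPM in HOMO. WT library 3 was lowest in 67 of 75 genes (89.3%, against 26.3% of all genes). Of these 75 genes 0 passed in edgeR or DESeq2 and 9 reached an unadjusted p of 0.05 in edgeR, all lower (12%, against 6.19% of all genes). The median was -0.22. It was -0.36 against WT libraries 1 and 2 (1 higher and 52 lower, background 14.7% and 14.8%), 0.16 against WT library 3 (3 higher and 0 lower, background 1.86% and 1.63%), and -0.13 with the GC content offset. The complex I subunit gene Ndufa3 was at 31.9, 33.7 and 18.1 CPM in WT and 19.6 and 17.1 CPM in HOMO.

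Division genes gave no call with all WT libraries in edgeR or DESeq2, and the calls against parts of the WT libraries differed in direction. For G2 and M phase genes the sums were 17130, 17330 and 14690 CPM in WT and 16470 and 17650 CPM in HOMO, so the groups overlapped. Of 60 members 0 passed (2 higher and 1 lower at an unadjusted p of 0.05), and in 16 both HOMO libraries exceeded every WT library while in 0 they lay below (26.7%, against 18.8% of all genes for higher and 16.4% for lower). The spindle gene Aspm was at 272, 263 and 302 CPM in WT and 324 and 381 CPM in HOMO (log2 0.34, edgeR adjusted p = 0.342), and the condensin gene Ncapg at 223, 211 and 223 CPM against 266 and 269 CPM (log2 0.29). The median of the list was -0.04 (0.00 with upper-quartile scaling), -0.13 against WT libraries 1 and 2 (6 higher and 23 lower, background 14.7% and 14.8%) and 0.17 against WT library 3 (7 higher and 0 lower, background 1.86% and 1.63%). Ncapg was at -0.16 with the GC content offset.

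Of 59 genes of S phase and DNA replication 0 passed (2 higher and 5 lower at an unadjusted p of 0.05), with a median of -0.12. The cyclin gene Ccne2 was at 47.5, 40.4 and 50.7 CPM in WT and 66.0 and 59.7 CPM in HOMO (log2 0.44), and Cdt1, which licenses replication origins, was at 74.2, 80.4 and 60.2 CPM against 53.5 and 54.0 CPM (log2 -0.41). These 2 genes of one phase differed from WT in opposite directions, each without overlap. Against WT libraries 1 and 2 the list had 3 members higher and 27 lower (median -0.19, background 14.7% and 14.8%), and against WT library 3 it had 3 higher and 0 lower (median 0.11, background 1.86% and 1.63%). Ccne2 was at 0.066 and Cdt1 at -0.15 with the GC content offset.

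Among 53 genes of MYC targets and ribosome biogenesis 0 passed in edgeR and 3 in DESeq2, all lower, while in edgeR 12 reached an unadjusted p of 0.05, all of them lower (22.6%, against 6.19% of all genes for lower). In 17 the HOMO libraries were below all WT libraries (32.1%, against 16.4% of all genes) and in 3 above (5.66%, against 18.8%). Odc1, the first enzyme of polyamine synthesis, was at 168, 179 and 171 CPM in WT and 116 and 126 CPM in HOMO. Its log2 change was -0.51 (SE 0.124, edgeR adjusted p = 0.213, DESeq2 adjusted p = 0.0154), and it was near the same against WT libraries 1 and 2 (-0.49, 0.000262) and WT library 3 (-0.50, 0.00537). Rrp12, a factor of ribosome assembly, was at 29.1, 28.7 and 28.02 CPM in WT and 20.9 and 21.4 CPM in HOMO (log2 -0.44, edgeR adjusted p = 0.208, DESeq2 adjusted p = 0.0155), and at -0.24 with the GC content offset. WT library 3 lay with the other WT libraries in both genes, which a choice by p over all 3 WT libraries favours. The median of the list was -0.21 with all WT libraries, -0.21 against WT libraries 1 and 2 (1 higher and 27 lower, background 14.7% and 14.8%), 0.01 against WT library 3 (0 higher and 4 lower, background 1.86% and 1.63%), and -0.098 with the GC content offset.

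Genes of germinal center identity had a median of -0.02, which was 0.02 with upper-quartile scaling, and 0 of 30 passed in edgeR (3 higher and 2 lower at an unadjusted p of 0.05), while DESeq2 called 3, all higher. Mybl1, a MYB family gene of germinal center cells, was at 697, 683 and 726 CPM in WT and 974 and 930 CPM in HOMO (log2 0.44, SE 0.0855, edgeR adjusted p = 0.155, DESeq2 adjusted p = 3.74e-05). Mef2c, a MADS box factor of B cell responses, was at 655, 644 and 752 CPM against 910 and 879 CPM (log2 0.39, DESeq2 adjusted p = 0.0309). Both genes were higher in HOMO than in all WT libraries. Mybl1 was at 0.082 (edgeR adjusted p = 0.885) and Mef2c at 0.18 (0.627) with the GC content offset. Against WT libraries 1 and 2 the list had 5 members higher and 12 lower, and against WT library 3 it had 3 higher and 0 lower. For dark zone genes 0 of 17 passed in edgeR or DESeq2 (1 lower at an unadjusted p of 0.05 in edgeR), with a median of -0.10, -0.12 against WT libraries 1 and 2 (3 higher and 3 lower) and 0.0046 against WT library 3 (1 and 1). Lipc, a lipase gene, was at 91.9, 96.0 and 67.2 CPM in WT and 60.9 and 53.05 CPM in HOMO (log2 -0.58, edgeR adjusted p = 0.268). Gadd45g was at 2.99, 2.95 and 5.65 CPM against 1.39 and 2.90 CPM.

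Light zone activation genes had 0 of 31 members passing in edgeR and 1 in DESeq2 (Egr1), 2 higher and 5 lower at an unadjusted p of 0.05 (6.45% and 16.1%, against 6.33% and 6.19% of all genes), and a median of -0.20, with Egr1 and Dusp2 as the members of smallest p. The median was -0.082 against WT libraries 1 and 2 (4 higher and 9 lower) and -0.22 against WT library 3 (0 and 10). With the GC content offset it was -0.085, and 0.086 when WT library 3 was also left out (4 higher and 1 lower). In the latter fit 1688 of all 16596 genes were higher and 949 lower, with a median of 0.053. Targets of NF-kB and CD40 had 0 of 30 passing in edgeR or DESeq2, 2 higher and 6 lower at an unadjusted p of 0.05 in edgeR (6.67% and 20%), and a median of -0.19. It was -0.097 against WT libraries 1 and 2 (6 higher and 8 lower) and -0.093 against WT library 3 (0 and 6). With the GC content offset it was -0.024, and 0.13 when WT library 3 was also left out (7 higher and 2 lower, beside the same 1688 and 949 of all genes). Nfkbib, which encodes the inhibitor IkB-beta, was at 19.6, 23.2 and 17.8 CPM in WT and 12.3 and 16.1 CPM in HOMO (log2 -0.50, edgeR adjusted p = 0.292). Ebi3, a cytokine subunit gene, was at 3.03, 3.98 and 2.88 CPM against 1.32 and 2.15 CPM. Both genes were lower in HOMO without overlap.

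Among genes of AID, somatic hypermutation and end joining 0 of 43 passed in edgeR and 1 in DESeq2 (Brca2, adjusted p = 0.0359), 7 reached an unadjusted p of 0.05 as higher and 1 as lower (16.3% and 2.33%, against 6.33% and 6.19% of all genes), and in 19 the HOMO libraries were above all WT libraries (44.2%, against 18.8%). Brca2, a factor of homologous recombination, was at 113, 94.8 and 129 CPM in WT and 162 and 156 CPM in HOMO (log2 0.50, SE 0.126, edgeR adjusted p = 0.225). Shld2, a subunit of the shieldin complex that protects broken ends and that also lies within 5 Mb of Pbrm1, was at 23.8, 21.4 and 23.2 CPM against 30.2 and 30.6 CPM (log2 0.41). The median was 0.07, 0.05 against WT libraries 1 and 2 (9 higher and 7 lower), and 0.12 against WT library 3 (5 higher and 0 lower).

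The other subunits of the complex did not pass in edgeR or DESeq2 with all WT libraries. Arid2, the subunit that with Pbrm1 defines PBAF, was at 183, 172 and 210 CPM in WT and 238 and 233 CPM in HOMO (log2 0.32, SE 0.116, edgeR adjusted p = 0.336). Both HOMO libraries were above WT, and WT library 3 was the highest WT library. Arid2 passed against WT libraries 1 and 2 (0.43, 0.000226) and not against WT library 3 (0.15, 0.18). The log2 change was -0.03 for Brd7 and 0.15 for Phf10, 2 PBAF-specific subunits whose groups overlapped. Phf10 was at 0.06 against WT libraries 1 and 2 (edgeR adjusted p = 0.635) and passed against WT library 3 (0.37, edgeR adjusted p = 0.0319), while Brd7 passed in neither. Smarca4 was at 1042, 1015 and 807 CPM in WT and 786 and 872 CPM in HOMO (log2 -0.20, edgeR adjusted p = 0.509), with WT library 3 inside the HOMO range. Of 24 shared and BAF subunits 0 passed in edgeR or DESeq2 and 0 reached an unadjusted p of 0.05 in edgeR, with Smarcd1 at 61.9, 63.2 and 43.8 CPM against 42.5 and 44.3 CPM. Against WT libraries 1 and 2 the list had 0 members higher and 7 lower (median -0.12), among them Smarca4 (-0.29, edgeR adjusted p = 0.00472) and Smarcd1 (-0.50, 0.001), and against WT library 3 it had 0 and 0. Enzymes of histone methylation and acetylation had 0 of 42 passing in edgeR and 1 in DESeq2 (Hdac9, adjusted p = 0.0213), and 4 higher and 4 lower at an unadjusted p of 0.05. They had 13 higher and 11 lower against WT libraries 1 and 2, and 1 and 2 against WT library 3. The deacetylase gene Hdac9 was at 120, 109 and 134 CPM in WT and 166 and 160 CPM in HOMO (log2 0.43), and Hdac5 at 30.02, 31.02 and 27.6 CPM against 23.6 and 22.7 CPM (log2 -0.35, and -0.06 with the GC content offset).

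**Figure D5:**
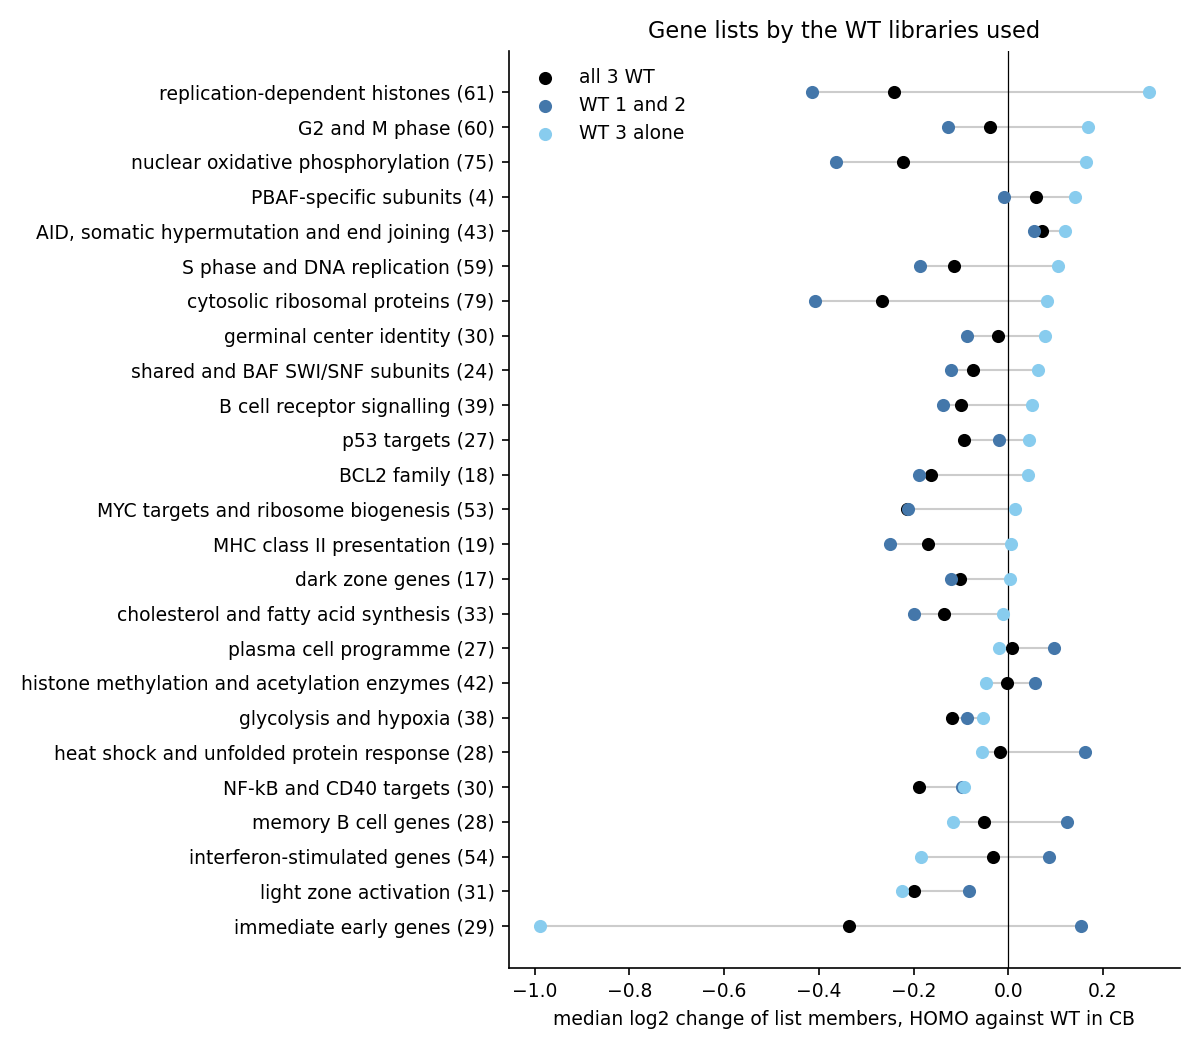
Median log2 change of the members of each of 25 gene lists (number tested in brackets) against all 3 WT libraries (black), WT libraries 1 and 2 (dark blue) and WT library 3 (light blue). The dark and light blue points lie on opposite sides of 0 in 20 lists, farthest apart for immediate early genes (0.15 and -0.99) and histone genes (-0.41 and 0.30).

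The remaining lists had 0 members passing in edgeR, while DESeq2 called 2 glycolysis and hypoxia genes and 1 gene each of MHC class II presentation, B cell receptor signalling, p53 targets, the plasma cell programme and memory B cells. For MHC class II presentation (19 genes, median -0.17), 1 gene was higher and 5 lower at an unadjusted p of 0.05 (5.26% and 26.3%, against 6.33% and 6.19% of all genes). The median was -0.25 against WT libraries 1 and 2 (1 higher and 9 lower) and 0.0058 against WT library 3 (2 higher and 0 lower). March1, a ubiquitin ligase that removes MHC class II from the surface, was at 286, 271 and 296 CPM in WT and 384 and 371 CPM in HOMO (log2 0.41, edgeR adjusted p = 0.196, DESeq2 adjusted p = 0.00782), and the class II chain gene H2-Ab1 was at 1070, 1156 and 873 CPM against 831 and 775 CPM (log2 -0.36). The ligase and the chain thus lay on opposite sides of WT, each without overlap. They were at 0.19 and -0.11 with the GC content offset.

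For B cell receptor signalling (39 genes, median -0.10) the counts were 4 and 3, with 7 higher and 11 lower against WT libraries 1 and 2 and 3 and 1 against WT library 3. Cr2, the complement receptor that aids the B cell receptor, was at 386, 359 and 332 CPM in WT and 482 and 465 CPM in HOMO (log2 0.40, SE 0.0941, edgeR adjusted p = 0.196, DESeq2 adjusted p = 0.0011, and 0.21 with the GC content offset), above all WT libraries with WT library 3 the lowest.

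Glycolysis and hypoxia genes (38 genes, median -0.12) had 0 higher and 3 lower at an unadjusted p of 0.05, 0 and 11 against WT libraries 1 and 2, and 0 and 3 against WT library 3. Pdk1, a kinase that shuts off pyruvate dehydrogenase, was at 23.8, 24.7 and 23.0 CPM in WT and 14.0 and 16.9 CPM in HOMO (log2 -0.62, SE 0.132, edgeR adjusted p = 0.174, DESeq2 adjusted p = 0.00392). Ndrg1, a gene induced by hypoxia, was at 7.17, 11.7 and 12.1 CPM against 4.58 and 2.69 CPM (log2 -1.53, SE 0.31, DESeq2 adjusted p = 0.00109). WT library 3 lay within or beside the range of WT libraries 1 and 2 in both, which their choice by smallest p favours.

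Among p53 targets (27 genes, median -0.09, 0 higher and 2 lower at an unadjusted p of 0.05) Zfp365, a zinc finger gene, was at 2.29, 1.92 and 1.20 CPM in WT and 0.293 and 0.409 CPM in HOMO (log2 -2.31, SE 0.434, edgeR adjusted p = 0.143, DESeq2 adjusted p = 0.00134). Bax, a p53 target and a killer member of the BCL2 family (18 genes, median -0.16, 0 higher and 3 lower), was at 23.2, 22.95 and 19.96 CPM against 16.7 and 17.98 CPM, and Bcl2l14 at 3.66, 3.61 and 2.72 CPM against 1.76 and 1.74 CPM. In the plasma cell programme (27 genes, median 0.01, 2 higher and 1 lower) the disulfide isomerase gene Pdia4 was at 40.0, 35.5 and 50.2 CPM against 78.3 and 68.1 CPM (log2 0.80, SE 0.226, edgeR adjusted p = 0.255, DESeq2 adjusted p = 0.0417). All 4 genes were without overlap between groups, as were 35.2% of all genes, and a choice by smallest p favours this.

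Memory B cell genes (28 genes, median -0.05, 1 higher and 3 lower at an unadjusted p of 0.05) held Vim, an intermediate filament gene, at 96.1, 77.1 and 70.1 CPM in WT and 57.6 and 44.99 CPM in HOMO (log2 -0.66). Bmpr1a is the member of that list that passed in DESeq2 (adjusted p = 1.22e-05) and in limma-voom with the block (0.0216). Cholesterol and fatty acid synthesis (33 genes, median -0.14) had 1 gene higher and 4 lower at an unadjusted p of 0.05, among them Srebf1, a master regulator of lipid synthesis (log2 -0.41), and Insig1, which retains its precursor in the endoplasmic reticulum (-0.33). Heat shock and unfolded protein response genes (28 genes) had 2 higher and 0 lower, Chordc1 (log2 0.34) and Hspa4l (0.37). Interferon-stimulated genes (54 genes) had 3 higher and 5 lower, with Herc6 at 0.51 and Gbp4 at -0.33. The medians of the last 2 lists, -0.02 and -0.03, and that of the histone enzymes were on the other side of 0 with upper-quartile scaling.

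Markers of cell types were read as levels. The 13 germinal center B cell markers summed to 7773, 7974 and 6450 CPM in WT and 7622 and 7090 CPM in HOMO, and none was at 0 in any CB library. For macrophage genes the sum was 425.7, 452.8 and 360.6 CPM in WT against 368.6 and 312.4 CPM in HOMO, of which Apoe alone made 357, 399 and 301 and 304 and 265 CPM. The complement genes C1qa, C1qb and C1qc, which define tissue macrophages, were each at or below 0.867 CPM in all 5 libraries. T cell genes summed to 4.02, 5.50 and 15.7 CPM in WT and 11.2 and 11.6 CPM in HOMO, WT library 3 being with HOMO once more. Of the 20 neutrophil genes, 17 were at 0 in WT library 2 and 3 in HOMO library 2. S100a9, the most abundant of them, was at 0.276, 0 and 3.88 CPM in WT and 46.2 and 2.60 CPM in HOMO. Erythroid and platelet genes summed to at most 4.65 CPM and natural killer cell genes to at most 3.07 CPM in each library, dendritic cell genes to between 31.1 and 39.4 CPM, plasma cell genes to between 989.9 and 1134 CPM, and genes of naive, follicular and marginal zone B cells to between 677.9 and 793.2 CPM. Of the dendritic cell sum, Flt3 alone made 38.5, 38.9 and 29.9 CPM in WT and 32.0 and 36.65 CPM in HOMO. Most of the plasma cell sum was Jchain, Slamf7 and Xbp1, while Sdc1 was at most 2.97 CPM and Tnfrsf17 at most 0.366 CPM. Of stromal genes, all but Cr2, Pecam1 and Cdh5 were at or below 0.327 CPM. Escapees of X inactivation summed to 822, 769.6 and 987.5 CPM in WT and 920.5 and 1003 CPM in HOMO, with WT library 3 above the other WT libraries. The part of any of these in the results was not tested.

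The genotype difference in CB was last set against that in CC through the interaction of the fit. In edgeR 0 of 16596 genes (0%) passed, and 434 (2.62%) reached an unadjusted p of 0.05. By DESeq2, limma-voom and limma-voom with the replicate block 0 genes passed too, while 1432 did without WT library 3 of both fractions. Pbrm1 was at 238.8, 239.1 and 250.3 CPM in WT CC and at 151.8 and 150.4 CPM in HOMO CC, a log2 change of -0.68 (edgeR adjusted p = 0.0564). Its difference between fractions was -0.19 (edgeR adjusted p = 1). Myo7a had a log2 change of -1.30 and Gatm of 0.79 in CC, with differences of -0.07 and 0.14. Ptpre was at 16.4, 16.8 and 17.3 CPM in WT CC and at 10.4 and 10.1 CPM in HOMO CC. Its log2 change was -0.72 in CC against -1.45 in CB, with a difference of -0.73 that did not pass (edgeR adjusted p = 1).

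The genes with the smallest p for this difference were Lgr5, Glrx, Coa6 and Glrx5, and none passed. Glrx encodes a glutaredoxin of the cytosol and Glrx5 a mitochondrial one that serves iron-sulfur cluster assembly. Glrx levels in CB were 7.80, 7.42 and 5.62 CPM for WT and 3.19 and 2.12 CPM for HOMO, with log2 changes of -1.40 in CB and -0.08 in CC. Glrx5 was at 19.5, 19.2 and 17.0 CPM against 12.4 and 13.8 CPM in CB, with log2 changes of -0.50 and 0.10. In these 2 genes the HOMO libraries were below WT in CB. Lgr5, a receptor of R-spondins, and Coa6, an assembly factor of cytochrome c oxidase, overlapped between genotypes in CB (log2 -0.02 and -0.04) and had log2 changes of 0.78 and 0.85 in CC.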

How the data were processed

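RNA-seq counts of 10 libraries (4 groups by genotype and fraction, 5 of them CB) were analysed. The authors deposited raw read counts for each gene, as whole numbers, and a length per gene, which was not used. Tools named in the submitters' processing notes are STAR, featureCounts, Subread, FastQC and R 4.2.1, and the build is mm10. How strand, multi-mapped and overlapping reads were treated, and which annotation was counted, is not given in the sources used here; overlapping and antisense genes and near-identical copies are uncertain. Of the gene identifiers, 54673 were found with their version in GENCODE M21, all with the coordinates given there, and symbols were found for 54587 by versioned identifier, for 567 more by the bare identifier, and for 267 by neither.

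Genes were filtered with filterByExpr (minimum count 10, minimum total 15) and scaled with TMM factors. Group means were fitted to all 10 libraries with edgeR 4.0.16 in R 4.3.3 (robust quasi-likelihood F-test, Benjamini-Hochberg, threshold 0.05), and the common biological coefficient of variation was 23.1%. SEs are the size of the log2 change over the square root of F. The steps were tested on simulated data. Alternatives, 22 in all, used DESeq2 1.42.0, limma-voom (limma 3.58.1), other scalings and filters, a GC content offset, and fits without each library or without WT numbers. Pairs of libraries of a CB group had a chi-square per degree of freedom from 6.24 to 78.5, so none was a duplicate.

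Same-numbered WT CB and CC libraries deviated together from their group means (r = 0.301, 0.426 and 0.436 across 8805 genes). WT CB library 1 went with WT CC library 2 nearly as much (0.278), and WT CB library 2 with WT CC library 1 less so (0.163). Pairs of number 3 with number 1 or 2 ran from -0.41 to -0.24. These values set number 3 apart in both fractions but do not settle the pairing of numbers 1 and 2. For the block, WT numbers were assumed to pair the fractions. HOMO and WT libraries are not paired.

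Genes were named by rule: 5 subunit genes, genes that passed at 5 CPM or more without overlap (genes that passed in all fits that leave out 1 CB library numbered 0), the members of smallest p of each list, markers, and the 4 genes of smallest p for the interaction. Members, 38 lists (1136 members, 1133 in the table, 1082 tested) and rule were chosen with earlier results of these data known. Klf2, Nr4a1, Tnfaip3, Hist2h2bb, Rpl41, Xist, Gm6768, Rn7sk, Kcnq1ot1 and Rhob were singled out after their values were seen. Promoter sequences are from RefSeq (GRCm38.p6), with all 4 genes matched by symbol.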

Additional observations from a re-analysis of the deposited data

How the results depend on the processing

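With 4 genes called in edgeR (1 higher, 3 lower), the counts called, higher and lower were 590, 344 and 246 with no low-count filter, 277, 137 and 140 with DESeq2, 7, 3 and 4 with limma-voom, 0, 0 and 0 with only the 5 CB libraries, 578, 308 and 270 with only WT number 3 among WT, and 2637, 1688 and 949 when a GC content offset was used and WT number 3 left out. In limma-voom with the WT number as a random replicate block (correlation 0.307) they were 16, 7 and 9. With this assumed pairing Pbrm1 and the other 3 genes still passed, and 8 of the 11 genes that came next and Gm6768 passed as well. Without single libraries, or without both of WT number 3, the counts ranged from 0 to 4893 called, 0 to 2432 higher and 0 to 2461 lower. The highest counts came without WT library 3: 4893 without both of its fractions, 1956 (1041 and 915) without its CB library and 8 (2 and 6) without its CC library. The count was 0 without HOMO CB library 2 or 3, WT CB library 1 or HOMO CC library 2 or 3, and 1 without WT CB or CC library 2. Other scalings, the stricter filter and the GC content offset alone gave 4 or 5 genes. For the difference between CB and CC, 0 genes became 154 with no filter, 1 with only WT number 3, 1544 with that offset and no WT number 3, and 0 to 1432 in fits that left out a library or WT number 3, with 36 without WT CB library 3 and 13 without WT CC library 3; with only the CB libraries it has no value.

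The log2 change of Pbrm1 ranged from -0.93 to -0.82 without single libraries or WT number 3, and its call was lost in edgeR without HOMO CB library 2 (adjusted p = 0.147) or 3 (0.467), WT CB library 1 (0.111), HOMO CC library 2 (0.0708) or 3 (0.0703), and with only the CB libraries (-0.86, adjusted p = 0.242).

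Signs turned in genes that had not passed. Against WT number 3 alone the log2 change was 0.13 for Brd7, 0.026 for Smarca4, 0.040 for Hist3h2ba, 0.070 for Hist1h1d, -0.14 for Xist and -0.11 for Kcnq1ot1. Without WT CB library 3 and without WT number 3 it was 0.93 and 0.95 for Klf2, 0.24 and 0.27 for Nr4a1, 0.33 and 0.35 for Tnfaip3, -0.070 and -0.045 for Hist2h2bb, and 0.26 and 0.29 for Rhob, while the other end of the range without single libraries was -0.63, -0.90, -0.44, 0.32 and -1.14 in the same order. With the GC content offset it was -0.0057 for Phf10, 0.013 for Smarca4, -0.16 for Ncapg, 0.026 for Bax and -0.063 for Chordc1. With that offset and no WT number 3 it was -0.13 for Phf10, 0.086 for Dusp2, -0.28 for Ncapg (edgeR adjusted p = 0.00231), 0.072 for Bax, -0.12 for Chordc1, 1.37 for Klf2, 0.58 for Nr4a1, 0.35 for Tnfaip3 and 0.57 for Rhob. Brd7 was at 0.012 with upper-quartile scaling and 0.028 without WT CB library 2. The cause was not tested. With 2 HOMO and 3 WT libraries, the number of libraries and the distance of WT library 3 from the others limit the precision.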

Other observations

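Genes that GENCODE marks as TEC, transcribed regions not yet tested by experiment, took 0.291%, 0.249% and 0.601% of the counts of tested genes in the WT CB libraries in order of number, against 0.553% and 0.579% in HOMO. WT library 3 stood with the HOMO libraries. Over the 1038 such genes tested the median log2 change was 0.48, with 1.03 against WT libraries 1 and 2 and -0.08 against WT library 3, beside -0.04, 0.00 and 0.01 over all genes tested. Sense intronic RNAs (180 genes) had the same order, with medians of 0.51, 1.07 and -0.02. Kcnq1ot1, an imprinted long noncoding RNA, was at 294, 222 and 744 CPM in WT and 668 and 721 CPM in HOMO.

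Rn7sk, the small nuclear RNA that restrains the elongation factor P-TEFb, was at 5841, 5851 and 3103 CPM in WT and 7599 and 8681 CPM in HOMO, with no overlap (log2 0.72, edgeR adjusted p = 0.373). It was at 0.50 against WT libraries 1 and 2 (edgeR adjusted p = 0.181) and at 1.38 against WT library 3 (edgeR adjusted p = 5.12e-06). The processed pseudogene Gm6768 was at 0.158, 0.172 and 1.20 CPM in WT and 8.35 and 8.32 CPM in HOMO (log2 3.86, SE 0.702, edgeR adjusted p = 0.143). It passed against WT libraries 1 and 2 (5.64, edgeR adjusted p = 1.58e-06) and against WT library 3 (2.78, 0.000191), in DESeq2 (adjusted p = 4.14e-05) and in limma-voom with the replicate block (0.019). Its HOMO libraries were alike and far above all WT libraries, WT library 3 included. As a pseudogene it can share reads with its parent gene. Rhob, a small GTPase gene, was at 7.37, 5.39 and 25.9 CPM in WT and 6.995 and 8.21 CPM in HOMO, with WT library 3 alone.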
